A study of Mus musculus with 6 samples.

Results

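The IFIT genes, Rsad2 and Isg15 are antiviral effector genes that cells switch on when they sense interferon or viral nucleic acid. Here they were measured in OT-I cells from spleen and lymph nodes. OT-I cells are CD8 T cells with a transgenic receptor for an ovalbumin peptide. The Themis cKO cells carried a conditional knockout of Themis, a T cell signalling protein, and the WT cells were wild type for Themis. The labels do not name the Cre driver. Cells of both genotypes were enriched as naive cells and cultured for 3 days in IL-2 (1 µg/ml). RNA was sequenced from 3 cKO and 3 WT libraries. The members were chosen by symbol, as every gene named Ifit followed by a digit plus Rsad2 and Isg15. The rule found 8 genes of the 854 in the deposited table, all 8 passed the filter on low counts, and 6 of them are Ifit genes, which is every such gene in RefSeq. The Ifitm membrane proteins share part of the name but not the family and were not included.

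Type I interferon acts through a receptor on the cell surface, and its target genes carry interferon-stimulated response elements (ISREs) near their starts. IFIT proteins are built from tetratricopeptide repeats, and several bind viral RNA or block its translation. Viperin, the product of Rsad2, is a radical SAM enzyme that turns CTP into a chain terminator of viral RNA synthesis. ISG15 is a ubiquitin-like protein that is attached to other proteins by an enzyme cascade of its own and is also released from cells.

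The sequences just before the transcription starts show what these genes share in their promoters. The 250 bases before each RefSeq start (GRCm38.p6) were searched on both strands for the ISRE-like motif GAAANNGAAA, which reads TTTCNNTTTC on the other strand, with overlapping matches kept. A match was found in 7 of the 8 genes, and in 978 of 32851 RefSeq promoters of that length (2.98%). The stretches that hold the matches are printed 5′ to 3′ on the strand of the gene, with the matched letters in capitals.
Isg15, chr4:156200860-156200911, minus strand: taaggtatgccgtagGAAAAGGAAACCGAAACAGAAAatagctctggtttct
Rsad2, chr12:26456548-26456587, minus strand: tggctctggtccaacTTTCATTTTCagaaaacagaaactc
Ifit1, chr19:34640770-34640828, plus strand: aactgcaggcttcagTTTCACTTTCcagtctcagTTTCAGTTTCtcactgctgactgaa
Ifit1bl2, chr19:34640770-34640828, minus strand: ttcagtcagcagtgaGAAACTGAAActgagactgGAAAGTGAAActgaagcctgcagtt
Ifit3, chr19:34583358-34583431, plus strand: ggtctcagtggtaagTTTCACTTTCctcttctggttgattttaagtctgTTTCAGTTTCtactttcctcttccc
Ifit3b, chr19:34607754-34607827, plus strand: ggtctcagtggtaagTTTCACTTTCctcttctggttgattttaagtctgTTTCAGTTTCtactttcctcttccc
Ifit1bl1, chr19:34602048-34602087, minus strand: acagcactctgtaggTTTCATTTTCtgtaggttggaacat

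The Isg15 stretch holds 3 matches that overlap one another, starting 78, 72 and 66 bases before the start. Rsad2 has 1 match, 120 bases before its start. Ifit1 has 2 matches, and the Ifit1bl2 stretch is the same genomic segment read on the opposite strand, since the starts of these neighbouring genes lie back to back. The printed stretches of Ifit3 and Ifit3b are identical in all 74 bases, with 2 matches each. RefSeq gives Ifit1bl1 and Ifit1bl2 a second start: that of Ifit1bl1 has 1 match 23 bases before it, and that of Ifit1bl2 has none. No match lies in the 250 bases before either start listed for Ifit2. The starts used are those of RefSeq's promoter entries, and the gene intervals of Ifit2, Ifit3, Ifit3b, Ifit1bl1 and Ifit1bl2 begin further out. Both Ifit1bl2 matches therefore lie inside its own gene interval, as do the matches of Ifit3, Ifit3b and Ifit1bl1. A match is a string of letters and not a measured binding site, and the absence of one says only that these letters are not in that window.

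All 8 genes were lower in Themis cKO cells than in WT cells, by 4.25-fold for Ifit1bl2 to 79.1-fold for Rsad2. Values are read counts scaled within each genotype, with both genotypes taken at equal depth. Scalings that centre the table on itself brought the log2 fold change of Rsad2 from -6.31 to about -5.01 and that of Ifit1bl2 from -2.09 to about -0.80, where Ifit1bl2 was no longer called. In each of the 8 genes, all 3 cKO libraries lay below all 3 WT libraries. Genes without overlap were not counted over the whole table, so this separation cannot be said to set these genes apart. All 8 passed edgeR's quasi-likelihood test with Benjamini-Hochberg adjustment over 794 genes at 0.05. This count has to be read against the table, which holds genes selected by fold change: 75.8% of the genes tested were called lower in cKO and 24.2% higher, so that every tested gene was called. The size of the change is therefore what describes these genes. Their median log2 fold change was -3.69, against -1.64 for all genes called lower and -1.34 for all genes tested. In bulk RNA, fewer cells of a type and less RNA per cell cannot be told apart.

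**Figure D1:**
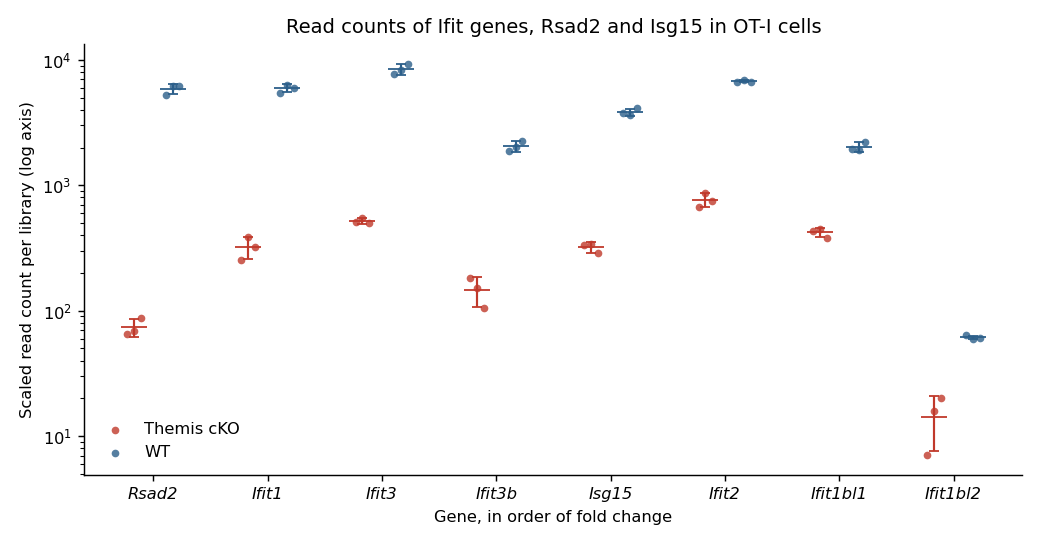
Scaled read count of each gene in each library, on a log axis, with Themis cKO libraries (red) left of WT libraries (blue). Points are libraries, and bars show the mean and SD of 3. No cKO point reaches a WT point of the same gene, and Rsad2 has the widest gap, at 65.5 to 86.8 against 5216 to 6149 counts.

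Rsad2 (gene ID 58185, 6 exons on chr12:26442743-26456452, minus strand, GRCm38.p6) changed most. It had 65.5, 68.9 and 86.8 scaled counts in the cKO libraries, against 5216, 6143 and 6149 in the WT libraries. The highest cKO library was far below the lowest WT library. The log2 fold change was -6.31 (SE 0.14, edgeR adjusted p = 2.05e-09). By fitted fold change, 9 other genes of the 794 tested were lower than Rsad2.

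Among the Ifit genes, Ifit1 (gene ID 15957, 2 exons on chr19:34640889-34650009, plus strand) had the largest fold change. Its protein binds viral RNA whose cap lacks the methyl mark of host messages. It had 256, 385 and 324 scaled counts in cKO, against 5474, 6335 and 5971 in WT. The groups were an order of magnitude apart, with a log2 fold change of -4.20 (SE 0.15, edgeR adjusted p = 1.11e-08).

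Ifit3 (gene ID 15959, chr19:34583119-34588982, plus strand) encodes a partner that, in human cells, stabilises IFIT1. It had 512, 547 and 499 scaled counts in cKO, against 7746, 8253 and 9337 in WT. The spread among cKO libraries was small, with a coefficient of variation of 4.83%, and the log2 fold change was -4.02 (SE 0.10, edgeR adjusted p = 2.05e-09). Ifit3b (gene ID 667370, chr19:34607530-34613403, plus strand) is its close copy, identical in 1198 of 1209 coding bases (99.1%). It had 183, 151 and 106 scaled counts in cKO, against 1867, 2029 and 2246 in WT, and a log2 fold change of -3.80 (SE 0.19, edgeR adjusted p = 5.78e-08). No count of Ifit3 and 16.7% of those of Ifit3b are whole numbers, and how the reads they share were divided is uncertain. Summed, Ifit3 and Ifit3b had a log2 fold change of -3.98.

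Ifit2 (gene ID 15958, 3 exons on chr19:34550550-34576534, plus strand) encodes an RNA-binding member that in mice limits virus spread in the nervous system. It had 676, 876 and 751 scaled counts in cKO, against 6639, 6900 and 6692 in WT. The WT libraries were the tightest of any member, with a coefficient of variation of 2.05%. The log2 fold change was -3.14 (SE 0.11, edgeR adjusted p = 7.53e-09), and all its counts in the table are whole, as they are for Rsad2.

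The paralogs Ifit1bl1 and Ifit1bl2 changed least. Ifit1bl1 (gene ID 667373, chr19:34592888-34662981, minus strand) had 432, 450 and 379 scaled counts in cKO, against 1950, 1900 and 2218 in WT. Its log2 fold change was -2.27 (SE 0.12, edgeR adjusted p = 6.31e-08). Ifit1bl2 (gene ID 112419, chr19:34617046-34640827, minus strand) was the scarcest, with 7.05, 15.7 and 20.2 scaled counts in cKO, against 63.6, 60.0 and 60.5 in WT. Its log2 fold change was -2.09 (SE 0.33, edgeR adjusted p = 0.000172), and it is the one member whose call ended under scalings that centre the table on itself (adjusted p of 0.0690 to 0.0952). The coding sequences of these paralogs are 87.4% identical to each other, and 74.0% and 73.8% identical to Ifit1, so shared reads make their split uncertain. Added together, Ifit1, Ifit1bl1 and Ifit1bl2 had a log2 fold change of -3.41.

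Isg15 (gene ID 100038882, 2 exons on chr4:156199424-156200818, minus strand) had 331, 343 and 287 scaled counts in cKO, against 3769, 3640 and 4111 in WT. The groups were again far apart, and the log2 fold change was -3.58 (SE 0.11, edgeR adjusted p = 7.53e-09). Of the Isg15 counts, 16.7% are whole numbers, as for Ifit3b.

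Levels of different genes were compared as scaled counts per kilobase of transcript. In cKO cells Isg15 was highest at 424 ± 39.5 per kilobase (SD, n = 3), followed by Ifit3 at 297 ± 14.4, Ifit2 at 201 ± 26.4, Ifit1bl1 at 191 ± 16.6 and Ifit1 at 121 ± 24.3. Ifit3b at 73.3 ± 19.4, Rsad2 at 19.5 ± 3.03 and Ifit1bl2 at 4.25 ± 1.98 came last, and among neighbours in this order Ifit2 and Ifit1bl1 overlapped between libraries. In WT cells Isg15 at 5079 ± 322 and Ifit3 at 4840 ± 466 per kilobase overlapped at the top. Ifit1 at 2231 ± 163, Ifit2 at 1766 ± 36.2 and Rsad2 at 1543 ± 142 came next without overlap. Ifit3b at 1024 ± 95.3 and Ifit1bl1 at 919 ± 77.7 overlapped, and Ifit1bl2 was lowest at 18.2 ± 0.576. Rsad2 thus ranked 7 of 8 in cKO cells and 5 of 8 in WT cells.

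The makeup of the 8 transcripts differed between genotypes. Rsad2 made up 1.48 ± 0.327% of their summed counts per kilobase in cKO cells and 8.85 ± 0.519% in WT cells (SD, n = 3 each). Ifit1bl1 made up 14.3 ± 0.544% in cKO cells and 5.27 ± 0.236% in WT cells. Isg15 held the largest mean share in both genotypes, at 31.8 ± 1.42% in cKO cells and 29.2 ± 1.22% in WT cells. Shares were not tested on their own, since they restate the counts.

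**Figure D2:**
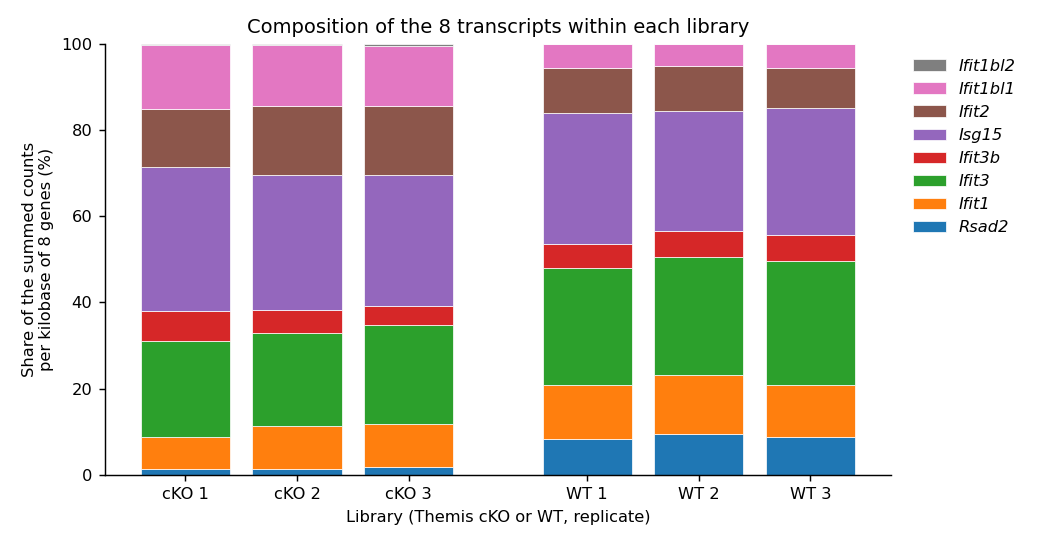
Share of each gene in the summed scaled counts per kilobase of the 8 genes, in percent, for the 3 Themis cKO libraries (left) and the 3 WT libraries (right). The Rsad2 segment averages 1.48% in cKO and 8.85% in WT, and the Ifit1bl1 segment 14.3% in cKO and 5.27% in WT.

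Whether the genes changed by different amounts was tested on the log2 ratio of 2 genes within each library, which does not depend on depth or scaling. In 23 of the 28 pairs the cKO and WT ratios did not overlap. With 3 libraries against 3, the two-sided exact permutation test cannot give less than 0.1, before or after adjustment, so no pair could pass 0.05. The smallest value of this test after adjustment over the 28 pairs was 0.122. The log2 ratio of Rsad2 to each of the other genes was lower in cKO by more than its spread, with a difference of -2.09 (SE 0.19) against Ifit1 and -4.09 (SE 0.38) against Ifit1bl2 (exact p = 0.1 for both). Ifit1 also differed from its paralog Ifit1bl1, with a log2 ratio of -0.40 ± 0.31 in cKO and 1.55 ± 0.16 in WT (SD, n = 3 each, exact p = 0.1). Per kilobase, too, Ifit1bl1 was the more abundant of the 2 in cKO libraries, and Ifit1 in WT libraries. The log2 ratio of Isg15 to Ifit1bl1 had the smallest SD of the 28 pairs in cKO, at -0.39 ± 0.011, against 0.93 ± 0.032 in WT (SD, n = 3 each, exact p = 0.1).

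The other 5 pairs overlapped between genotypes. They included the 3 pairs among Ifit1, Ifit3 and Ifit3b, with differences of -0.20 (SE 0.17), -0.39 (SE 0.35) and -0.19 (SE 0.22) and exact p of 0.4, 0.4 and 0.6. The others were Ifit3b with Isg15 (-0.25, SE 0.18, exact p = 0.3) and Ifit1bl1 with Ifit1bl2 (-0.04, SE 0.51, exact p = 0.9). These values do not show that the paired genes changed alike.

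**Figure D3:**
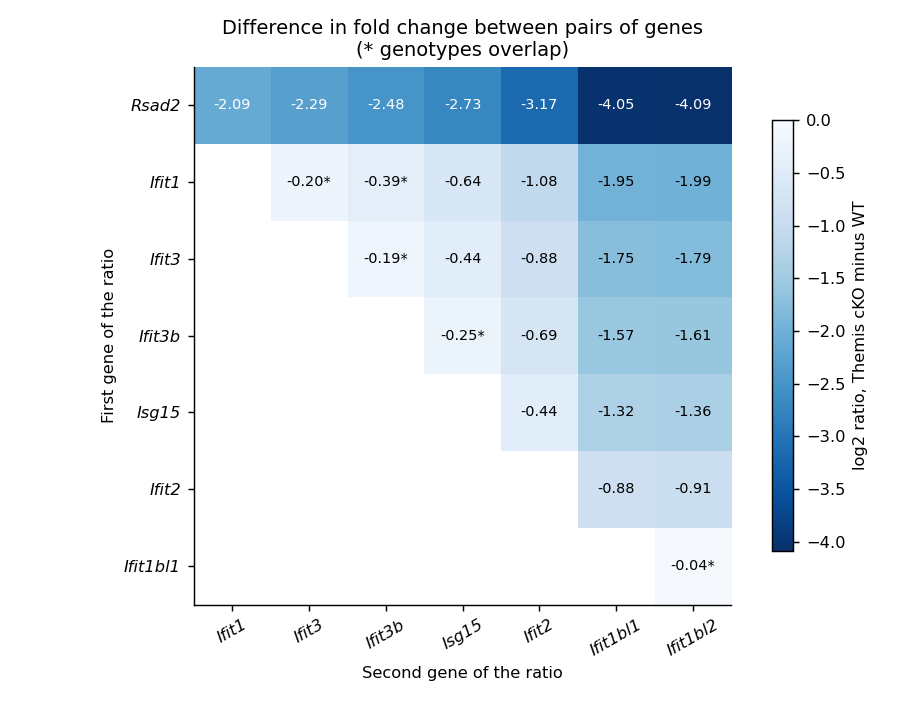
Difference between Themis cKO and WT in the mean within-library log2 ratio of the row gene over the column gene, for the 28 pairs. Darker cells are larger differences, and stars mark the 5 pairs whose genotypes overlap. The Rsad2 row is the darkest, from -2.09 to -4.09.

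The Ifit genes lie together in 112.4 kb of chromosome 19 in GRCm38.p6 (34550550 to 34662981). The 4 on the plus strand, Ifit2, Ifit3, Ifit3b and Ifit1, had the larger changes, and the 2 on the minus strand, Ifit1bl1 and Ifit1bl2, the smaller ones. The RefSeq interval of Ifit1bl1 encloses Ifit3b, Ifit1bl2 and Ifit1, and whether the authors counted reads by strand was not stated in the sources used. Of the 3 other protein-coding genes within 100 kb, Ch25h, the enzyme that makes 25-hydroxycholesterol, was in the table at a log2 fold change of -2.97, and Lipa and Slc16a12 were not. Rsad2 has Cmpk2, a mitochondrial nucleotide kinase, 12.7 kb away, with a log2 fold change of -3.18, while Rnf144a was not in the table. Of 8 protein-coding neighbours of Isg15, Agrn (-1.75) and Perm1 (-1.57) were in the table.

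**Figure D4:**
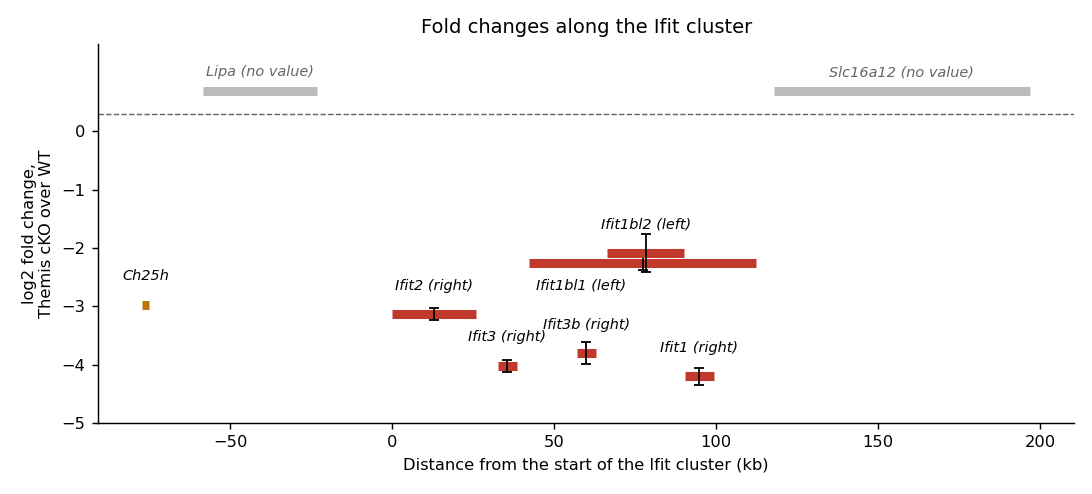
Fold changes along the Ifit cluster, with distance from its first base in kilobases and the log2 fold change of Themis cKO over WT. Red bars span the Ifit genes, with the standard error as a black line and the direction of transcription in brackets, and the orange bar is Ch25h. Grey bars above the dashed line are neighbours with no value. The genes read to the right lie between -4.20 and -3.14, and those read to the left at -2.27 and -2.09.

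Of 5 genes listed for attaching and removing ISG15, 4 were in the table and all 4 were called lower, as were 75.8% of all tested genes. Usp18, the protease that takes ISG15 off its targets and also restrains the interferon receptor, had 311 ± 55.1 scaled counts in cKO and 3844 ± 582 in WT (SD, n = 3 each; log2 fold change -3.63). Ube2l6, the conjugating enzyme, changed by -2.37 and Herc6, the main ISG15 ligase in mice, by -2.24 on the log2 scale. Trim25, a ligase for ISG15 and for RIG-I, changed by -1.33, which scalings that centre the table on itself brought to between -0.04 and -0.03, where it was no longer called. Uba7, the activating enzyme, was not in the table.

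The wider pathway was described with lists that hold no member. Of 170 listed genes, 82 were in the table and 80 were tested; 79 were called lower and 1 higher, with a median log2 fold change of -2.01. Every tested gene of the table was called, 75.8% of them lower, and the count of each list is to be read against that share. Among ligands, 8 of 21 were in the table, 6 were tested and all 6 were called lower. Ifna2 and Ifna1, type I interferons, had no count in any cKO library, against 112 and 90.1 scaled counts on average in WT, which makes them at least 112-fold and 90.6-fold lower in cKO with the floor of 3 counts over the group. Ifna4 had 2 counts in all cKO libraries together, against 464 in WT. Ifng, the type II interferon, had 304 ± 48.2 scaled counts in cKO and 2102 ± 47.4 in WT (SD, n = 3 each). Near-identical Ifna genes share reads, so their split is uncertain. The ligands' median was -8.27 as fitted and -5.96 with the 4 genes at 0 set to their bounds.

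All 7 nucleic acid sensors and adaptors tested were called lower, of 17 listed, against 75.8% of all tested genes. They included the RNA helicases Dhx58 (-3.26), Ifih1 (-3.08) and Ddx58 (-1.51), which detect viral RNA. Of 19 receptors, kinases and transcription factors, 3 were in the table and called lower: Irf7 (-2.57), which drives interferon genes, Stat2 (-1.76) and Irf5 (-1.23). Irf5 turned to between 0.06 and 0.07 under the scalings that centre the table on itself. Of 8 genes listed as negative regulators, Usp18, Isg20 (-3.07) and Trex1 (-1.02), a DNase, were called lower. Isg20, an exonuclease, is also listed among the antiviral effectors. Trex1 turned to between 0.27 and 0.28 under those scalings.

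Other interferon-induced effectors gave 60 genes called lower and 1 higher among 61 tested of 104 listed. Those with the smallest p included the chemokine Cxcl10 (-4.70), Cmpk2 (-3.18), Phf11c (-3.38), Oasl2 (-3.02), a relative of the 2-5A synthetases, Daxx (-1.99), Trim30a (-1.96), Ifi206 (-1.93) and Ifi208 (-1.89). The gene called higher was Ifitm1 (1.15), chosen for mention after its value was seen. Scalings that centre the table on itself turned the sign of 13 of the 61 and called 7 of the 61 higher.

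**Figure D5:**
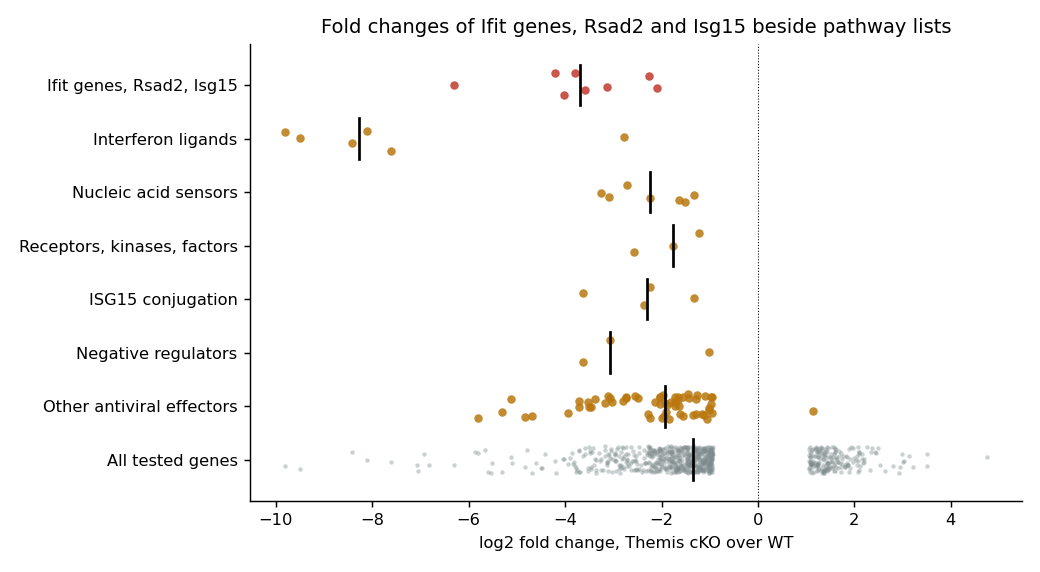
Log2 fold change of Themis cKO over WT for the Ifit genes, Rsad2 and Isg15 (red), 6 lists of interferon pathway genes (orange) and all 794 tested genes (grey), with black lines at the medians. The red points lie between -6.31 and -2.09, and the empty stretch around 0 reflects how the table was selected. Ligands without counts in cKO are plotted at their fitted values, which depend on the prior count.

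The genes most like the members were found by the Euclidean distance, over the 6 libraries, between their centred log2 profile and the mean profile of the members, among 446 other genes averaging at least 100 scaled counts. The nearest were Sdc3, a heparan sulfate proteoglycan, at a distance of 0.238, Slfn5 at 0.260, Ccrl2, an atypical chemokine receptor, at 0.314, Usp18 at 0.345 and Nr4a2, an orphan nuclear receptor, at 0.369. The median distance of the candidates was 2.95. Sdc3 had 137, 177 and 143 scaled counts in cKO, against 1912, 1806 and 2303 in WT. Of the members, Isg15 was nearest to the mean of the others, at 0.330, and Rsad2 farthest, at 3.67.

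For each of the 8 genes the authors' deposited table gives a smaller fold change than this fit, while for Themis the 2 are alike (-2.25 in the authors' deposited table). This was not particular to the 8 genes. The authors' deposited table gives -2.94 for Usp18, -2.10 for Irf7 and -4.20 for Cxcl10, against -3.63, -2.57 and -4.70 in this fit. For Oas1g it went the other way, at -2.83 in the authors' deposited table and -2.80 in this fit. In the authors' deposited table, the log2 fold change of cKO over WT was -5.61 for Rsad2, -3.49 for Ifit1, -3.26 for Ifit3, -3.16 for Ifit3b and -2.98 for Isg15. It was -2.71 for Ifit2, -1.72 for Ifit1bl2 and -1.68 for Ifit1bl1. By the q-values of the authors' deposited table, 7 of the 8 genes were under 0.05, where 55% of its 854 genes were lower in cKO and under 0.05. The exception was Ifit1bl1, with a q-value of 0.0901 in the authors' deposited table.

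Across the whole table, Themis itself had 1140 ± 141 scaled counts in cKO and 5423 ± 418 in WT (SD, n = 3 each; log2 fold change -2.25, edgeR adjusted p = 5.16e-08). None of the 11 CD8 T cell markers listed was among the selected genes, so the labelled cell type cannot be checked from the table. Every tested gene was called, 24.2% of them higher and 75.8% lower, and the marker counts are to be read against those shares. Of 12 NK cell markers, 7 were in the table and all 7 were called higher. Their summed levels were 1088 to 1882 scaled counts in cKO libraries and 450 to 646 in WT libraries. Of 9 B cell markers, 3 were called higher, at 118 to 308 in cKO and 60.0 to 102 in WT. Of 14 myeloid and conventional dendritic cell markers, 3 were in it, at 560 to 1029 in cKO and 519 to 747 in WT, with Fcer1g (1.53) and Itgax (1.28) called higher and Mpeg1 (-2.91) lower on the log2 scale. Of 9 plasmacytoid dendritic cell markers, 3 were in it, at 3500 to 3869 in cKO and 4724 to 4899 in WT. Ccr9 was called higher and Bst2 and Cox6a2 lower, while Siglech, which was on the list, was not in the table. Bst2, at a mean of 1862 scaled counts in cKO and 4530 in WT, is also listed among the antiviral effectors. The sign of Bst2 turned under scalings that centre the table on itself. The part of these cell types in the results was not tested.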

How the data were processed

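RNA from 3 Themis cKO and 3 WT libraries was sequenced with DNBSEQ-G400 library protocols, per the labels. Per the submitters' processing notes, the build was GRCm38.p6 and the tools included RSEM 1.2.12, Bowtie2 2.2.5, HISAT2 2.0.4 and DESeq2 1.4.5, with no role or order given. The authors deposited 1 table of 854 genes with an estimated count per library, of which 66.1% are whole numbers. Per the file headers it also holds the authors' log2 fold change, p-value and q-value. Log2 ratios of mean counts between -0.94 and 1.06 do not occur, so its genes were selected by fold change. The rule of selection was not stated in the sources used. The counts of the table sum to between 424605 and 437437 in cKO libraries and between 946766 and 1054442 in WT libraries. These sums are not depths, and the library totals were not used here.

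Counts were rounded and fitted with edgeR 4.0.16 in R 4.3.3 (quasi-likelihood F-test with 1 term for genotype, filter at a smallest count of 10, 794 genes tested, 60 left out, Benjamini-Hochberg at 0.05). Libraries were scaled by median-of-ratios within each genotype, with both genotypes taken at equal depth, an assumption that fold changes rest on. The fit was checked on simulated counts with most genes unchanged and both genotypes at equal depth. That check differs from this selected table and cannot test the assumption of equal depth. Whether replicates were separate animals or cultures is not in the labels. The p-values therefore measure only the spread between libraries, and this spread may be technical. Replicates of a genotype differed by more than sampling noise. Standard errors come from each fold change with its F statistic, those of ratio differences from the 2 SDs. Transcript lengths, exon numbers and coding identities come from the GENCODE annotation of GRCm38.p6, and gene intervals and promoter sequences from RefSeq. By gene ID, 842 of 854 genes matched RefSeq.

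Members and lists were chosen with earlier results of these data known. Named genes are all members, Themis, up to 4 called genes with the smallest p in each pathway list (10 among other effectors) and the 5 nearest profiles. Alternatives were TMM, median-of-ratios over the table, no scaling, DESeq2 1.42.0, no filter, a replicate block, leaving out each library, adjustment over the 16996 genes implied by the deposited q-values, and, added after seeing the data, depth at the centre of the empty interval and sums of paralogs.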

Additional observations from a re-analysis of the deposited data

How the results depend on the processing

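All 8 genes stayed lower in cKO under each of the 14 refits, and 7 of them were called in all 14. Scalings that centre the table on itself moved the median of all log2 fold changes by 1.30 (TMM), 1.29 (median-of-ratios over the table) and 1.30 (DESeq2), and the members' median to between -2.41 and -2.40. Ifit1bl2 was then at -0.80, -0.81 and -0.80 and no longer called. Genes called lower numbered 211, 213 and 215 there, against 602, and genes called higher 224, 224 and 236, against 192. Among the genes called, not all those tested, the share that was higher was 51.5%, 51.3% and 52.3%, against 24.2%. Irf5 was at 0.069, 0.062 and 0.075 and Trex1 at 0.28, 0.27 and 0.28. Irf5 also lost its call over 16996 genes (adjusted p = 0.133). Other effectors called higher numbered 7 in each, against 1. These scalings take most of the table as unchanged, and the selection of this table by fold change breaks that assumption. Summing Ifit1 with its paralogs gave -3.41 in place of -4.20. Deviations of same-numbered libraries correlated at 0.064, -0.068 and -0.22 over 554 genes. Differently numbered libraries were not compared, so these values do not settle whether replicate numbers pair the libraries. The replicate block left 602 genes called lower and 191 higher. Leaving out each library gave 601 to 616 lower and 191 to 197 higher. Depth limits Ifit1bl2 most, at 7.05 to 20.2 scaled counts in cKO.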

Other observations

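The ISRE-like motif was also counted over the promoters of the other called genes. It stood in the 250 bases before a start in 55 of 460 genes called lower that have a RefSeq promoter (11.96%), in 5 of 144 called higher (3.47%) and in 3.46% of 27025 RefSeq genes. The lower genes include the members and the pathway lists, and the shares were not tested.

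Standard errors were worked out from the authors' deposited table by dividing its log2 fold change by the normal score of its p-value, which takes that p-value as a Wald test. They came to 0.570 to 0.868 for the 8 genes and 0.102 for Themis. Set against the standard errors of a DESeq2 refit of the counts, they were 1.38 to 6.83 times as large for the 8 genes, with a median of 5.12, and had a median of 1.25 over all genes. Ratios above 4 were found in 7 of the 8 genes, against 56 of all tested genes (7.05%), these 7 included. They were thus more frequent among the 8 genes than among all tested genes, though not confined to them. The cause of the difference was not tested.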
